A study of Mus musculus with 6 samples.

Results

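Tight junctions and the polarity complexes beside them were examined as 37 genes, all found by symbol among the 23284 rows of the count table, in the esophageal epithelium of E12.5 mouse embryos. The list comprised 25 tight junction genes (11 claudins, 4 MARVEL or tricellular proteins, 6 plaque scaffolds and 4 immunoglobulin-like adhesion proteins) and 12 polarity genes (3 of the Crumbs, 5 of the Par and 4 of the Scribble complex). RNA was sequenced from 3 p63KO libraries, in which both copies of Trp63 are Trp63-CreERT2 alleles, and from 3 libraries of littermate controls, titled WT. The sources used here do not say whether controls carried a copy of that allele, which strain was used or how many embryos make up a library. The p-values therefore measure only how these libraries vary, which may be technical.

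Tight junctions seal the space between neighbouring epithelial cells near their apical end. Claudins are membrane proteins whose extracellular loops form the barrier or ion-selective pores, while occludin and the tricellular proteins shape the strands and their corners, and scaffolds such as the zonula occludens proteins tie them to actin. The Crumbs and Par complexes define the apical side of the cell and the Scribble complex the basolateral side. In stratifying epithelia, p63 is a master transcription factor of the basal layer, and barrier claudins change as the tissue stratifies.

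Genes of both structures moved in both directions in p63KO, mostly by less than 2-fold, and close relatives such as Cldn3 and Cldn4 moved apart. In the edgeR quasi-likelihood test, with p adjusted over all 13849 genes tested and 0.05 as the threshold, 16 of the 37 genes changed: 10 rose and 6 fell. That is 43.2% of the list, beside 29.6% of all genes tested (15.3% higher and 14.3% lower). All 37 had enough counts to be tested. The median log2 fold change was 0.11 over the list and -0.01 over all genes, and the median absolute log2 fold change was 0.37 against 0.20. Changes of at least 2-fold were found for 3 members, Cldn9, Marveld3 and Cldn1, while 11.6% of all genes passed both criteria. The 2 groups of libraries did not overlap for 20 members, against 44.1% of all genes.

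**Figure D1:**
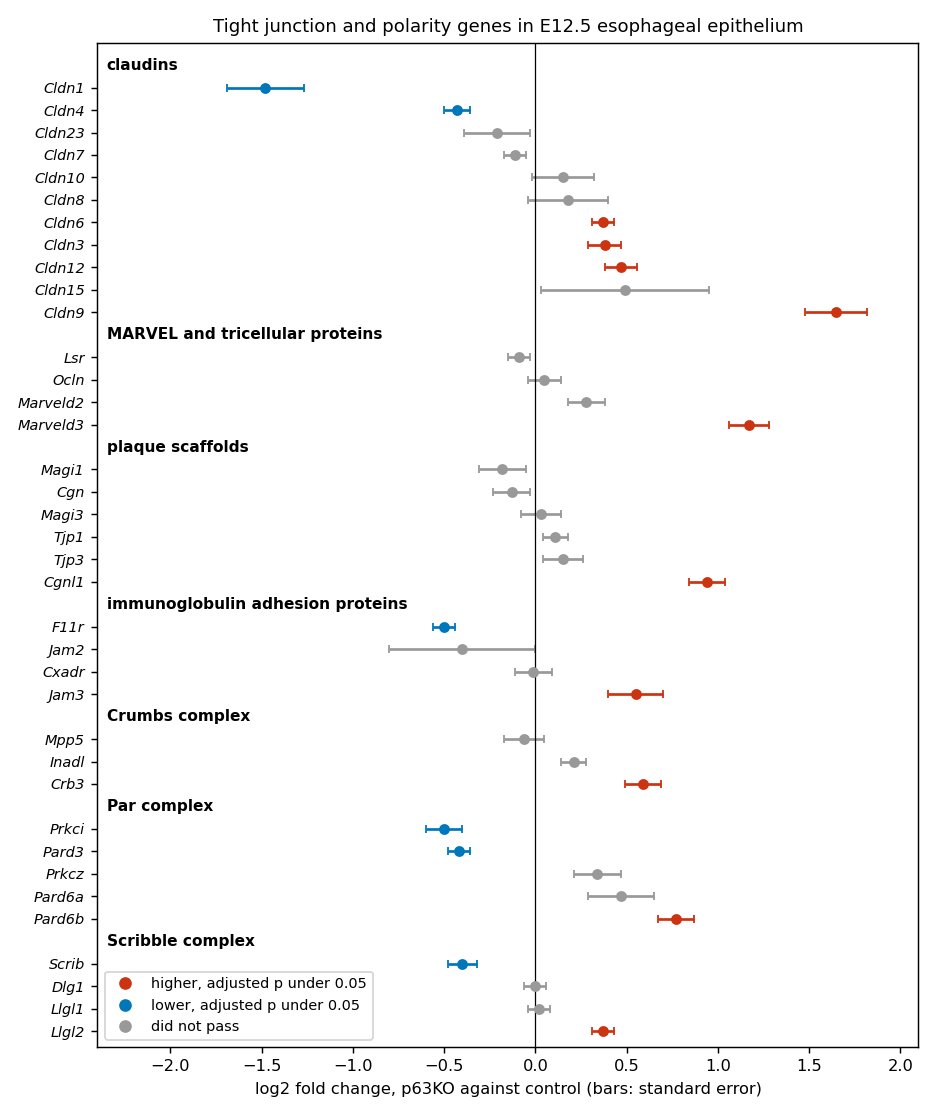
The log2 fold change of each of the 37 genes in p63KO against control is plotted by class, with bars for the standard error, and red and blue mark genes that rose or fell past the test. Cldn9 (1.65) and Marveld3 (1.17) stand at the upper end and Cldn1 (-1.48) at the lower end, while 21 grey genes did not pass.

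Total counts lay between 13335328 and 20093838 per library. Trp63 was 584, 674 and 551 CPM (read counts relative to the scaled library total) in control against 76.7, 62.2 and 75.4 CPM in p63KO, so each library matched its label. Pan-epithelial genes (Epcam, keratins, Esrp1 and others) summed to 4692 to 4984 CPM in control against 4966 to 5084 CPM in p63KO. Single genes of this list still moved: of 11 tested, 4 rose and 2 fell, beside 15.3% and 14.3% of all genes tested. The similar sums thus do not mean that each gene stayed level. Summed basal markers lay between 3467 and 4234 CPM in control against between 420.5 and 526.6 CPM in p63KO, and 9 of 10 fell. Neuroendocrine markers summed to 5.67 to 10.2 CPM in control against 492.5 to 629 CPM in p63KO, and 12 of the 13 tested rose. Mesenchyme markers summed to 589.6 to 718.5 CPM in control against 1455 to 1850 CPM in p63KO; 3 rose, led in level by Dcn (159 ± 49.1 to 1222 ± 151 CPM), and 5 fell, Col1a1 and Col3a1 among them. Endothelial markers summed to 14.3 to 20.5 and 16.9 to 21.8 CPM, blood markers to 5.75 to 41.8 and 12.54 to 25.8 CPM, muscle markers to 81.9 to 186.8 and 32.5 to 59.8 CPM, enteric neuron and crest markers to 72.0 to 105.3 and 251.2 to 322.9 CPM, and trachea and lung markers to 51.4 to 82.5 and 45.0 to 82.9 CPM. Control replicate 3 had the highest blood marker sum and held most reads of Cldn2 and Cldn18, described with the claudins. Hba-a1, Hba-a2, Hbb-b1 and Scgb1a1 had no count in any library. The part of these cell types in the changes below was not tested, and in such bulk libraries fewer cells of a type and less RNA per cell cannot be told apart.

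Among the claudins, Cldn9, Cldn12, Cldn3 and Cldn6 rose and Cldn1 and Cldn4 fell, while Cldn7, Cldn8, Cldn10, Cldn15 and Cldn23 did not pass. The 2 leading genes moved in opposite directions. Cldn6, a claudin of embryonic epithelia, was 411, 454 and 444 CPM in control against 556, 581 and 555 CPM in p63KO. Every p63KO library lay above every control library, and the log2 fold change was 0.37 (SE 0.06, edgeR adjusted p = 0.0017). Cldn4, a sealing claudin of many simple epithelia, was 390.0, 364 and 348 CPM in control against 291, 257 and 272 CPM in p63KO. All p63KO libraries were lower, and the log2 fold change was -0.43 (SE 0.07, edgeR adjusted p = 0.0015).

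Cldn3 lies next to Cldn4 in the RefSeq gene order and is, like it, a barrier claudin, but it rose. It was 65.2, 53.6 and 57.7 CPM in control against 84.7, 72.4 and 73.0 CPM in p63KO, without overlap (edgeR log2 fold change 0.38, SE 0.09, adjusted p = 0.013). Cldn9, a claudin known for its need in the inner ear, is the neighbour of Cldn6, and both rose. Cldn9 was low, at 4.24, 3.32 and 4.18 CPM in control, and reached 12.98, 12.54 and 11.4 CPM in p63KO. It rose 3.14-fold (edgeR log2 fold change 1.65, SE 0.17, adjusted p = 9.1e-05), more than any other listed gene. No stretch of 50 bases was shared between annotated transcripts of any of the 55 pairs of listed claudins, Cldn6 and Cldn9 included.

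Cldn1, the claudin on which the water barrier of the epidermis rests, was the member that fell furthest. Its level was 8.81, 11.7 and 10.7 CPM in control against 4.66, 3.25 and 3.19 CPM in p63KO, which left 35.9% of the control level (edgeR log2 fold change -1.48, SE 0.21, adjusted p = 0.00069). Cldn12, an atypical claudin linked to calcium transport, was 56.5, 57.3 and 56.8 CPM in control against 68.2, 84.6 and 83.0 CPM in p63KO. The groups did not overlap, and the log2 fold change was 0.47 (SE 0.09, edgeR adjusted p = 0.0033). Of the others, Cldn7, which binds Epcam, was 159 ± 5.33 CPM in control against 146 ± 8.61 CPM in p63KO (SD, n = 3; log2 fold change -0.11, SE 0.06). Cldn10, an ion pore former, was 122, 72.0 and 108 CPM in control against 116, 96.7 and 122 CPM in p63KO. Control replicate 2 was low for Cldn10, Cldn23 and Cldn8 alike, and the groups overlapped for all 3. Log2 fold changes were 0.15 (SE 0.17) for Cldn10, -0.21 (SE 0.18) for Cldn23 and 0.18 (SE 0.22) for Cldn8. With 1 library left out, these ranged from -0.05 to 0.31 for Cldn10, from -0.39 to -0.07 for Cldn23 and from 0.03 to 0.39 for Cldn8. Cldn15, a pore former of the intestine, stayed near 1 CPM (0.376 to 1.34 CPM over all libraries; 0.49, SE 0.46).

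The start sites of 4 of the 6 claudins that changed are shown here, because the neighbours Cldn3 and Cldn4 went opposite ways, as did the leading pair Cldn6 and Cldn4. Each line gives the 250 bases before the RefSeq start (GRCm38.p6), 5′ to 3′ on the gene's strand, with CACCTG, an E-box bound by Snai and Zeb repressors, in capitals on either strand. Cldn1 (chr16:26371840-26372089, minus strand) and Cldn4 (chr5:134946935-134947184, minus strand) fell, and Cldn3 (chr5:134985964-134986213, plus strand) and Cldn6 (chr17:23679115-23679364, plus strand) rose.
Cldn1: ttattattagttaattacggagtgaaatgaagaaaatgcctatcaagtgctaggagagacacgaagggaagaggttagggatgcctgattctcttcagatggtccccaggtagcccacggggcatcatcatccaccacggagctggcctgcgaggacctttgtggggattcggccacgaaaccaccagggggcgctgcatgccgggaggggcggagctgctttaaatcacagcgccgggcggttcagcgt
Cldn4: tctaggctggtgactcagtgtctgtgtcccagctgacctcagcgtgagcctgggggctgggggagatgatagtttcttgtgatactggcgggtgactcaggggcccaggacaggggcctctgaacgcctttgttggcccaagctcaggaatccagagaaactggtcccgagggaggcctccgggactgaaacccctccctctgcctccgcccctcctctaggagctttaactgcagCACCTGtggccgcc
Cldn3: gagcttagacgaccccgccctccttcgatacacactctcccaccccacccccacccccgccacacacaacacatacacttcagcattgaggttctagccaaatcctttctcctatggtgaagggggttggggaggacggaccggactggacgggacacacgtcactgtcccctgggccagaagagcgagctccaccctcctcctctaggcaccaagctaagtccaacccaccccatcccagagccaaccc
Cldn6: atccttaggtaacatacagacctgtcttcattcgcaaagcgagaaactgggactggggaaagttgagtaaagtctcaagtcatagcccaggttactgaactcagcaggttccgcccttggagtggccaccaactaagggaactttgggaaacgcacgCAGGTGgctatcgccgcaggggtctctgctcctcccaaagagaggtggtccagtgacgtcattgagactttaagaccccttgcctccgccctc
The E-box lies 14 bases before the start in Cldn4, which fell, and 93 bases before it in Cldn6, which rose, and these letters are not in the windows of Cldn1 and Cldn3, nor in the 3 windows of Cldn12. Cldn9 is not in the promoter table.

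The RefSeq promoter table matched 27 of the 37 genes, some with several starts, and CACCTG was found on either strand in 13 of them. Of 17492 protein-coding genes, 19.1% hold it in the same window, and of their 21263 single windows 16.9% do. A gene was counted if any of its windows held the letters, so genes with more starts had more chances to match. The number of starts per gene was not matched between the list and all genes. By call, 3 of 5 genes that fell, 3 of 6 that rose and 7 of 16 that did not pass held it. The letters AACCGG, the core bound by Grainyhead-like factors, were in 4 of 27 (Cgn, Cldn7, Ocln and Pard6a; 7.5% of genes), and none of those 4 passed the test. The p53 family decamer, searched under its usual degenerate consensus on both strands, was in Inadl, Pard3 and Tjp1 (7.34% of genes), of which Pard3 fell. None of the 3 motifs holds another within it, and a match is a description of the window.

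Seen as shares of the summed counts of the 11 claudins, Cldn6 and Cldn4 held most of the family in every library (63.8% to 68.2%), and the balance between them shifted. Their shares were nearly equal in control replicate 1, at 32.8% and 31.1%. Cldn6 had 32.8%, 37.9% and 36.0% in control and 42.2%, 45.0% and 42.8% in p63KO. Cldn4 had 31.1%, 30.4% and 28.2% in control and 22.0%, 19.9% and 21% in p63KO. The mean shares differed, as p63KO minus control, by 7.76 percentage points for Cldn6 and by -8.91 points for Cldn4. Summed over the family, claudin RNA was 1228 ± 27.5 CPM in control against 1302 ± 14.7 CPM in p63KO (SD, n = 3).

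Other shares moved by less. Cldn7 went from 12.9 ± 0.471% to 11.2 ± 0.561%, Cldn12 from 4.63 ± 0.138% to 6.04 ± 0.761% and Cldn3 from 4.78 ± 0.377% to 5.88 ± 0.464% (SD, n = 3). In the minor claudins, Cldn9 went from 0.318 ± 0.0357% to 0.944 ± 0.0588% and Cldn1 from 0.846 ± 0.135% to 0.284 ± 0.0603%, so that Cldn1 had the larger share in each control library and Cldn9 in each p63KO library. The shares of Cldn10 (8.15 ± 1.93% and 8.55 ± 0.977%), Cldn23 (1.51 ± 0.321% and 1.23 ± 0.116%), Cldn8 (1.30 ± 0.227% and 1.40 ± 0.391%) and Cldn15 (0.0676 ± 0.0407% and 0.0898 ± 0.0118%) overlapped between the groups. For the 7 shares without overlap, the two-sided exact permutation test gave p = 0.10, the smallest value that 3 against 3 libraries allow, so none of the 11 comparisons could pass 0.05, and the other 4 gave p between 0.30 and 0.80.

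**Figure D2:**
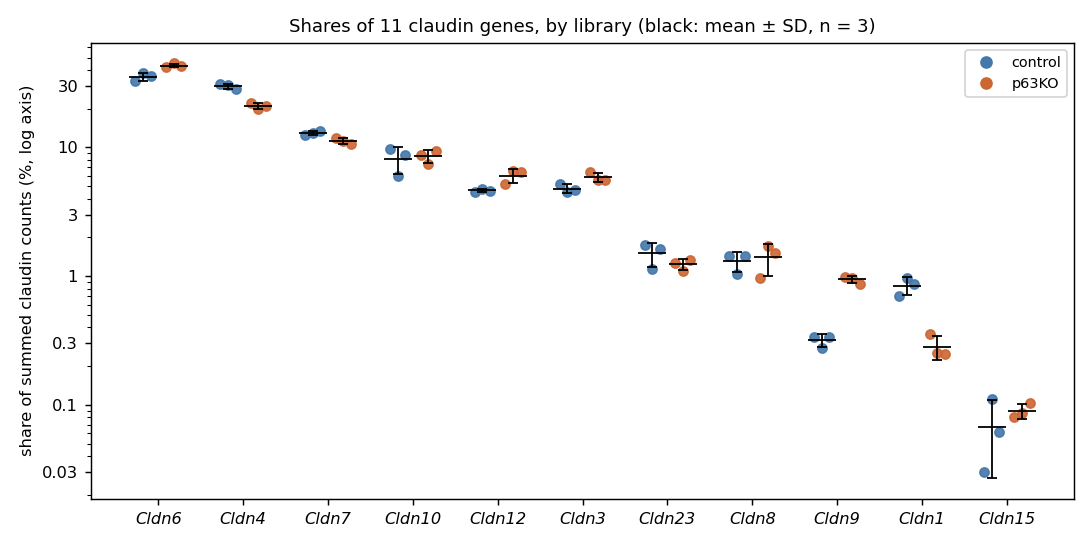
Each point is 1 library, and its height is the share of a claudin in the summed counts of the 11 claudins, in percent on a log axis, with black bars for the mean and SD of 3 libraries. Cldn6 lies between 42.2% and 45.0% in p63KO, above control, Cldn4 lies below it, and Cldn9 and Cldn1 trade places.

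Counts favour long transcripts, so levels between claudins were also set per kilobase of merged exons. On that scale Cldn6 stood at 254 CPM per kb in control and 328 in p63KO, Cldn4 at 202 and 151, Cldn7 at 107 and 99.2, Cldn3 at 46.7 and 60.9, and Cldn10 at 38.8 and 43.0. Cldn12, the longest of them, was 14.4 and 20.0 CPM per kb. With counts divided by length, the shares of Cldn6 became 36.98% in control and 45.0% in p63KO and those of Cldn4 29.5% and 20.7%, so Cldn6, Cldn4 and Cldn7 kept their order on both scales, while Cldn3 stood above Cldn10 per kilobase and below it by counts.

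Of the 15 claudin rows outside the list, 13 had at most 32 counts in any library, Cldn25 had more and Cldn16 had none. Cldn25 had between 836 and 1175 counts per library, but this symbol is a RefSeq synonym of 2 genes, Cldnd1 and Cldn25-ps, so the row was not assigned to either (edgeR log2 fold change 0.14, SE 0.06, adjusted p = 0.13). Cldn11, the oligodendrocyte and Sertoli cell claudin, had 11 to 28 counts per library. Cldn5, the endothelial claudin, had 0 to 10 counts. Cldn2, a cation pore former, had 32 counts in control replicate 3 and at most 2 in any other library, and Cldn18, a claudin of stomach and lung, had 8 counts in control replicate 3 and 0 in the other libraries, where a count of 0 allows up to 3 counts, or 0.149 to 0.225 CPM of the library total. Control replicate 3 thus stands apart for these genes, and the listed claudins were called the same way without it. The rows matched to Cldn34a, Cldn34b1 and Cldn34d had no count in any library.

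Among the MARVEL and tricellular proteins, which sit in the strands and at the corners where cells meet, Marveld3 rose and the other 3 did not pass. Marveld3 was 12.7, 15.5 and 14.8 CPM in control against 31.8, 33.3 and 31.7 CPM in p63KO. The libraries of each genotype lay close together and far from the other genotype, and Marveld3 rose 2.25-fold (edgeR log2 fold change 1.17, SE 0.11, adjusted p = 4.4e-05). Marveld2, tricellulin, was 46.0, 37.3 and 48.4 CPM in control against 51.3, 55.1 and 53.8 CPM in p63KO. Its groups did not overlap, yet it did not pass (edgeR log2 fold change 0.28, SE 0.10, adjusted p = 0.061), and it passed without control replicate 3 (0.36, edgeR adjusted p = 0.030) and with library totals as the only scaling (0.32, 0.048). Ocln, occludin itself, was 59.8 ± 6.67 CPM in control against 62.1 ± 1.06 CPM in p63KO (SD, n = 3; log2 fold change 0.05, SE 0.09). Lsr, the receptor that recruits tricellulin to corners, was 148 ± 4.59 and 139.5 ± 8.42 CPM (-0.09, SE 0.06); its exons overlap those of the antisense gene Gm4673 by 861 bases, and the strand setting of the counting is not given. The exons of Cldn3, Tjp3, Llgl1 and Cxadr overlap genes of the opposite strand by 5 to 44 bases.

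In the cytoplasmic plaque, Cgnl1 changed and 5 scaffolds did not pass. Cgnl1, paracingulin, was 29.7, 36.8 and 37.5 CPM in control against 63.6, 70.0 and 65.9 CPM in p63KO. It rose 1.92-fold with no overlap (edgeR log2 fold change 0.94, SE 0.10, adjusted p = 8.8e-05). Its paralog Cgn, cingulin, was 80.3, 71.8 and 93.4 CPM in control against 75.6, 78.1 and 70.8 CPM in p63KO, with overlapping groups (-0.13, SE 0.10). The zonula occludens gene Tjp1 was 239.9 ± 4.88 CPM in control against 259 ± 18.7 CPM in p63KO, and Tjp3 65.0 ± 9.88 and 72.0 ± 6.26 CPM (SD, n = 3; log2 fold changes 0.11, SE 0.07, and 0.15, SE 0.11). The inverted membrane-associated guanylate kinases Magi1 (-0.18, SE 0.13) and Magi3 (0.03, SE 0.11) also overlapped. Magi1 fell past the test without control replicate 1 (-0.32, edgeR adjusted p = 0.046).

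Among adhesion molecules of the immunoglobulin family, F11r fell and Jam3 rose. F11r, which encodes junctional adhesion molecule A, was 203, 221 and 224 CPM in control against 147, 153 and 158 CPM in p63KO. Each p63KO library lay below each control library, and the log2 fold change was -0.50 (SE 0.06, edgeR adjusted p = 0.00028). Jam3, also expressed by endothelium and mesenchyme, was 18.3, 22.6 and 17.0 CPM in control against 27.6, 33.2 and 24.1 CPM in p63KO (edgeR log2 fold change 0.55, SE 0.15, adjusted p = 0.022). Jam3 no longer passed when control replicate 1 was left out (0.51, edgeR adjusted p = 0.070), nor without replicate 3 of control (0.47, 0.055), replicate 1 of p63KO (0.57, 0.056) or replicate 2 of p63KO (0.44, 0.070), and 589 exon bases of Jam3 overlap the antisense gene Gm48796. Jam2, a mainly endothelial member, was between 0.554 and 1.12 CPM in all libraries (-0.40, SE 0.40). Cxadr, the coxsackievirus and adenovirus receptor, was 190.5 ± 13.3 and 189 ± 24.1 CPM (SD, n = 3; -0.01, SE 0.10).

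Polarity genes changed in 6 of 12 cases, 3 in each direction (29.6% of all genes tested changed), and each of the 3 complexes held members that moved and members that did not pass. In the Crumbs complex, Crb3, the short transmembrane Crumbs protein of epithelia, was 25.7, 25.3 and 30.9 CPM in control against 42.0, 39.2 and 41.5 CPM in p63KO. The groups were separate, and the log2 fold change was 0.59 (SE 0.10, edgeR adjusted p = 0.0017). Its adaptor Mpp5 (Pals1) was 66.2 ± 5.49 and 63.5 ± 9.19 CPM (SD, n = 3; -0.06, SE 0.11). Inadl (Patj), which links that complex to the junction, was 167, 149.9 and 168 CPM in control against 174, 188 and 199 CPM in p63KO. It did not pass, without overlap (edgeR log2 fold change 0.21, SE 0.07, adjusted p = 0.061), and passed with DESeq2 (adjusted p = 0.038), upper-quartile scaling (0.037), library totals alone (0.034) and without p63KO replicate 1 (0.039).

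In the Par complex, the scaffold Pard3 and the kinase gene Prkci fell while Pard6b rose. Pard3 was 231, 223 and 221 CPM in control against 160.2, 168 and 175 CPM in p63KO (edgeR log2 fold change -0.42, SE 0.06, adjusted p = 0.00051). Prkci, the atypical protein kinase C iota, was 235, 265 and 215 CPM in control against 148, 170.0 and 187 CPM in p63KO (-0.50, SE 0.10, edgeR adjusted p = 0.0047). Both were lower in all 3 p63KO libraries than in any control library. Pard6b, the adaptor between Cdc42 and the kinase, was 24.2, 25.9 and 29.3 CPM in control against 43.1, 44.7 and 48.1 CPM in p63KO, again with no overlap (0.77, SE 0.10, edgeR adjusted p = 0.00026). The kinase paralog Prkcz was 12.46 ± 1.03 and 15.8 ± 1.35 CPM (SD, n = 3) and Pard6a 7.03 ± 1.28 and 9.70 ± 0.492 CPM. Both were higher in every p63KO library without passing (log2 fold changes 0.34, SE 0.13, edgeR adjusted p = 0.075, and 0.47, SE 0.18, 0.082).

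In the Scribble complex, Scrib fell and Llgl2 rose. Scrib was 276, 299 and 258 CPM in control against 221, 218 and 192 CPM in p63KO (edgeR log2 fold change -0.40, SE 0.08, adjusted p = 0.0038). Llgl2, a Lethal giant larvae protein of epithelia, was 80.7, 83.6 and 83.7 CPM in control against 110.3, 103 and 107 CPM in p63KO (0.37, SE 0.06, edgeR adjusted p = 0.0014). The groups were separate for both genes. Its paralog Llgl1 was 231 ± 7.72 and 234 ± 14.3 CPM, and Dlg1, a Discs large scaffold, 132 ± 3.27 and 132 ± 5.86 CPM (SD, n = 3; log2 fold changes 0.02 and 0.00, SE 0.06 each).

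**Figure D3:**
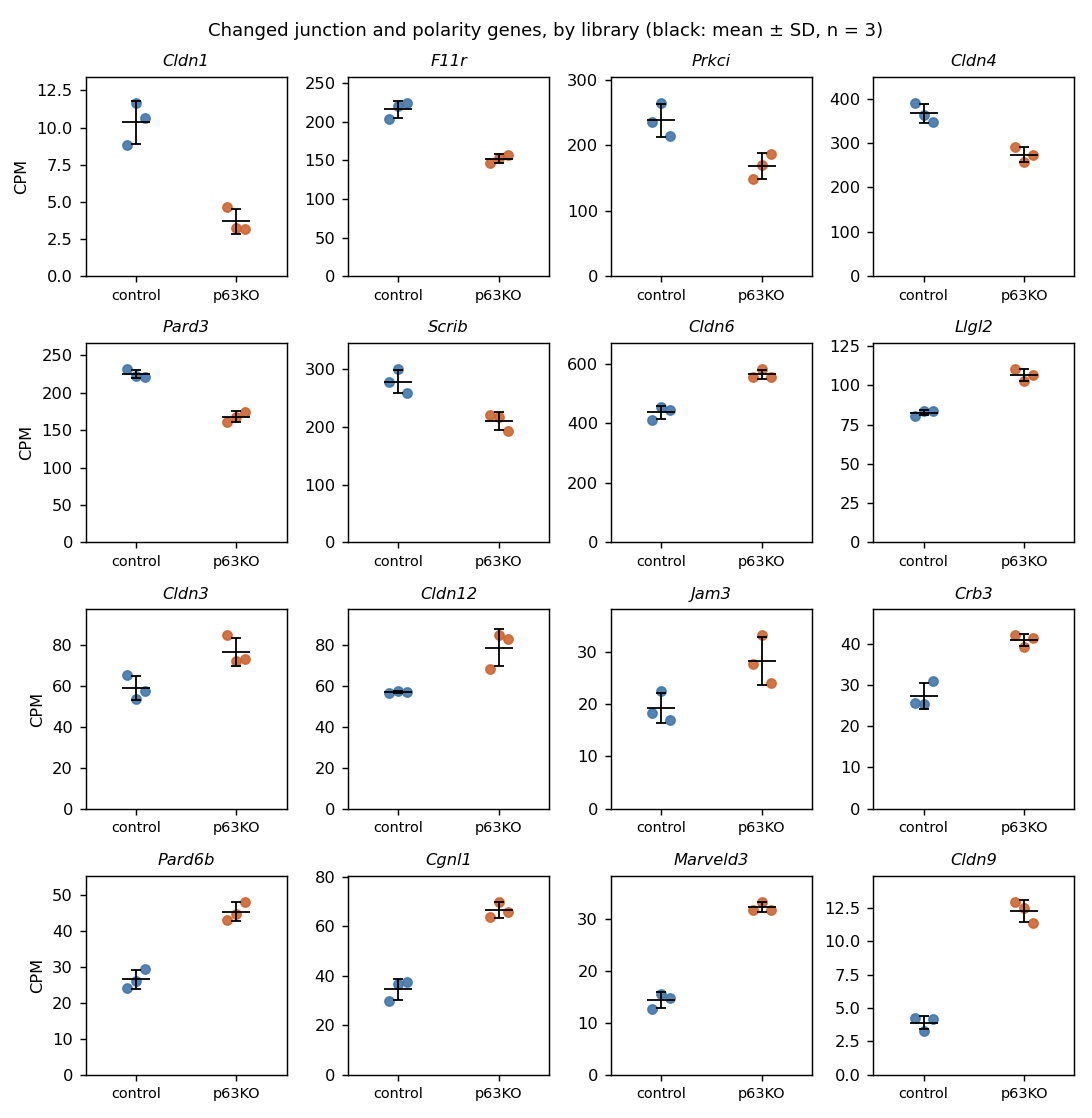
Each panel plots CPM in the 6 libraries (points) with the mean and SD of 3 (black) for 1 of the 16 genes that changed, ordered from the largest fall (Cldn1) to the largest rise (Cldn9), on axes that start at 0. Control and p63KO points do not overlap in any panel, which in part follows from choosing genes that passed the test.

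Paralogs or partners were set against each other as log2 count ratios within a library, where scaling cancels. Lsr to Marveld2 and Scrib to Dlg1 are pairs of partners, not of paralogs. Of 18 pairs compared, 14 had no overlap between the groups. The pairs are not independent, since genes such as Marveld2 and Cldn4 are in more than 1 of them. Most of the 14 also hold a gene that changed in the test above, in the same libraries. Among single genes the share without overlap was 44.1%, and no such share was computed over other pairs. The ratio of Cldn6 to Cldn9 went from 6.80 ± 0.26 in control to 5.52 ± 0.10 in p63KO, that of Cgn to Cgnl1 from 1.24 ± 0.24 to 0.17 ± 0.07 and that of Marveld2 to Marveld3 from 1.61 ± 0.31 to 0.73 ± 0.03 (SD, n = 3). Cingulin and paracingulin counts were thus close to equal in p63KO. Prkci to Prkcz went from 4.25 ± 0.25 to 3.41 ± 0.27, and Cldn3 to Cldn4 from -2.65 ± 0.10 to -1.84 ± 0.06. Smaller differences were seen for F11r to Cxadr (-0.49), Cldn7 to Cldn6 (-0.49), Scrib to Dlg1 (-0.41), Lsr to Marveld2 (-0.38), Cldn10 to Cldn23 (0.36), Llgl1 to Llgl2 (-0.35), Cldn7 to Cldn4 (0.31) and Ocln to Marveld2 (-0.23). Jam2 to Jam3 differed by -0.97 with Jam2 near 1 CPM. Each of the 14 had an exact two-sided permutation p of 0.10, the smallest possible here, and the other 4 pairs (Cldn12 to Cldn15, Tjp1 to Tjp3, Magi1 to Magi3, Pard6a to Pard6b) had exact permutation p between 0.30 and 0.80.

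**Figure D4:**
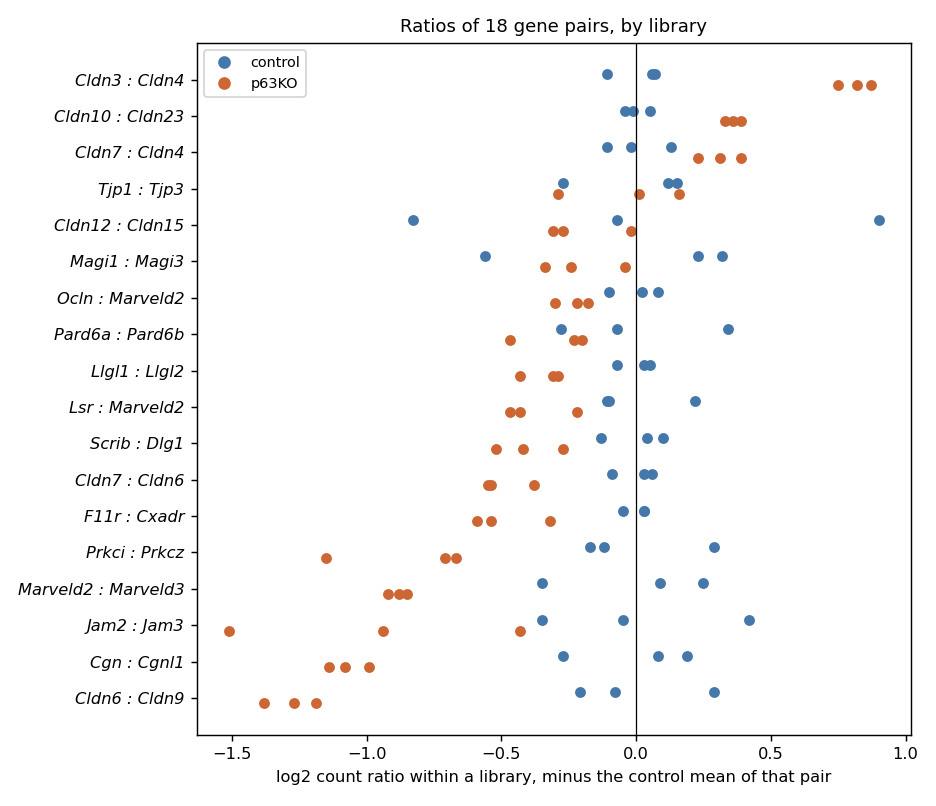
For each of 18 gene pairs, points give the log2 count ratio in a library minus the control mean of that pair, with control above and p63KO below the row's centre. Cldn6 to Cldn9 lies lowest in p63KO (a difference of -1.28 between means) and Cldn3 to Cldn4 highest (0.81), while Tjp1 to Tjp3 overlaps.

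Other genes of the same structures were taken from lists of their known components, and their counts stand beside 15.3% of all genes tested that rose and 14.3% that fell. Of 20 tested further tight junction genes, 5 rose and 5 fell (median log2 fold change 0.02). Those with the lowest p were Amotl2, an angiomotin (104.9 ± 20.1 to 264 ± 12.9 CPM), its paralog Amotl1, the most abundant of the list (734 ± 95.7 to 404 ± 40.0 CPM), and Ildr2, an angulin of tricellular corners (0.766 ± 0.176 to 4.01 ± 0.671 CPM). Ildr1, another angulin, rose as well (edgeR log2 fold change 0.68, SE 0.11, adjusted p = 0.0014), so that both Ildr angulins rose and Lsr did not pass. Mpdz, the paralog of Inadl, fell (-0.35, SE 0.08, edgeR adjusted p = 0.0083).

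Of 29 tested further polarity and apical membrane genes, 11 rose and 4 fell (median 0.15; 15.3% and 14.3% of all genes tested). Wwc1, the Kibra gene that binds atypical protein kinase C, rose from 75.2 ± 5.13 to 125 ± 3.73 CPM, and Dlg5 fell from 311 ± 18.6 to 229 ± 7.10 CPM. Ezr, ezrin, was the most abundant over all libraries (424 ± 19.6 and 384 ± 15.2 CPM) and did not pass. Pard6g, the remaining Par6 paralog, had the lowest p of this list and fell from 149.4 ± 15.3 to 72.3 ± 4.61 CPM (edgeR log2 fold change -1.05, SE 0.09, adjusted p = 2.2e-05). It moved against Pard6b, and the Par6 genes were therefore compared as a family after these values had been seen. Pard6g held 81.6 ± 2.55% of their summed counts in control and 56.8 ± 1.61% in p63KO, Pard6b 14.5 ± 1.98% and 35.6 ± 1.46%, and Pard6a 3.89 ± 0.933% and 7.64 ± 0.706% (SD, n = 3). With counts divided by length, Pard6g had 78.8% and 53.3% and remained first in both groups.

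**Figure D5:**
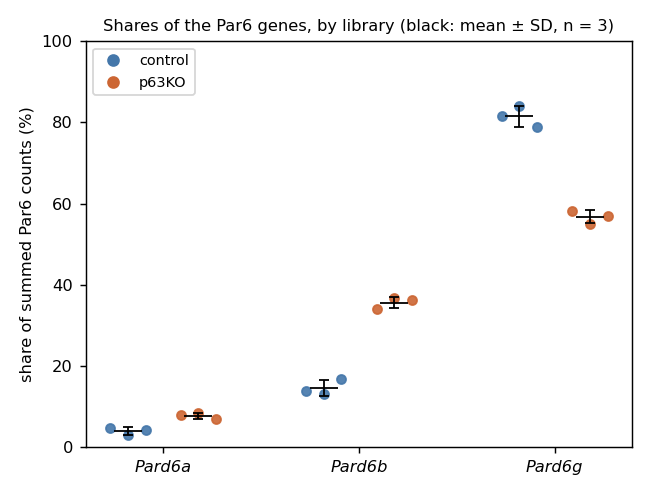
Points give the share of each Par6 gene in the summed counts of Pard6a, Pard6b and Pard6g in a library, in percent from 0 to 100, with the mean and SD of 3 libraries in black. Control points of Pard6g span 79.0% to 84.1% and p63KO points 55.1% to 58.2%, with Pard6b at 33.9% to 36.7% in p63KO.

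In the adherens junction below the tight junction, 9 of 16 tested genes fell and 2 rose (median -0.30; 14.3% and 15.3% of all genes tested). The nectin gene Nectin1 fell from 174 ± 13.4 to 42.4 ± 3.77 CPM. Jup, plakoglobin, changed by -0.73 on the log2 scale (SE 0.08), and Ctnnb1, the most abundant, by -0.26 (SE 0.08), and both passed the test. Epcam, which binds claudins, was 851 ± 6.61 and 947 ± 5.13 CPM and did not pass (edgeR log2 fold change 0.15, SE 0.05, adjusted p = 0.057).

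Of 13 transcription factors known to act on epithelial junction genes, 6 fell and 3 rose (14.3% and 15.3% of all genes tested). Grhl3 fell from 177 ± 20.2 to 8.94 ± 1.46 CPM, Snai2 from 37.8 ± 5.95 to 1.21 ± 0.726 CPM and Zeb2 from 25.9 ± 3.93 to 2.73 ± 0.766 CPM. Grhl2, the most abundant over all libraries, fell by 0.28 on the log2 scale (SE 0.08, edgeR adjusted p = 0.020). Grhl1 rose by 1.39 (SE 0.16), Snai1 by 1.23 (SE 0.31) and Klf4 by 0.27 (SE 0.09). Whether any of these factors act on the junction genes in these cells was not tested.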

How the data were processed

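The authors deposited raw counts per gene symbol, with no normalization, in 1 column for each of 6 libraries. The submitters' processing notes name mm9 as the build and TopHat2 2.1.0, bcl2fastq 1.8.4 and DESeq2 as tools; the sources used here name no counter, annotation or strand setting, and the read layout (single or paired) is not resolved by the labels. Columns were tied to samples through the sample descriptions.

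Low genes were removed with filterByExpr (at least 10 counts, total of at least 15), and libraries were scaled by TMM and tested by the edgeR 4.0.16 quasi-likelihood test (R 4.3.3) with group as the only term; p was adjusted by Benjamini-Hochberg over all 13849 genes. CPM are TMM-scaled, and SE is the log2 fold change divided by the square root of F. On simulated counts (13744 genes), edgeR recovered 37.3% of 67 genes changed 1.5-fold and 91.0% of 67 changed 2-fold. It recovered 98.5% of 66 changed 4-fold and called 8 unchanged genes. Only those 67, 67 and 66 genes were changed, and all genes had the same dispersion, while 4098 genes passed in the data. The recovered shares therefore do not give the rate at which changes are found in these libraries, where small changes can be missed. Ratios used a pseudocount of 0.5 counts. Merged exon lengths came from GENCODE M21 (GRCm38), not the build mm9. Replicates of each group all differed by more than sampling noise (chi-square per degree of freedom 7.53 to 15.3).

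The members and lists were chosen with earlier results of these data known. Named genes were Trp63, all members and, in each other list, the 3 with the lowest p and the most abundant; marker lists are given as sums, and Ildr1, Mpdz, Epcam, Dcn and the other remaining names were chosen after their values were seen. A gene that this rule names in the adherens junction list is not reported here. For Nectin2 and Cldnd1 no single row matched. Alternatives were DESeq2 1.42.0, limma-voom (limma 3.58.1), 3 scalings, 2 filters, a replicate block, 2 thresholds, each library left out, other sums and length for shares, and a pseudocount of 2.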

Additional observations from a re-analysis of the deposited data

How the results depend on the processing

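Of the 16 members that changed, 15 kept direction and call in all 14 alternative fits, Jam3 being the exception. Of the 21 that did not pass, 10 kept direction and side, 4 (Marveld2, Magi1, Inadl and Prkcz) passed in an alternative, and 7 near 0 changed sign in one. The number of changed members was 17 with DESeq2, 16 with limma-voom, 18 with library totals alone, 15 to 16 with 1 library left out, and 6 with a minimum of 1.5-fold, since most changes were smaller. All changed genes numbered 3150 to 3771 with 1 library left out, 2580 at an adjusted p under 0.01 and 2383 with at least 1.5-fold. With the replicate number as a block, 18 members and 4778 genes changed, Inadl (edgeR adjusted p = 0.037) and Prkcz (0.043) among them; same-numbered libraries deviated together by correlations of 0.17, 0.26 and 0.03, and not every library correlated best with its own number, so the numbers were not taken as pairs.

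With 1 library left out, log2 fold changes ranged from -0.05 to 0.31 for Cldn10, -0.02 to 0.14 for Ocln, -0.08 to 0.16 for Magi3, -0.07 to 0.09 for Cxadr, -0.18 to 0.01 for Mpp5, -0.02 to 0.03 for Dlg1 and -0.02 to 0.07 for Llgl1; Cxadr was 0.01 with upper-quartile scaling and 0.02 with library totals alone. The share difference ranged from -0.0649 to 0.315 percentage points for Cldn8 and -0.679 to 1.18 for Cldn10, and the log2 ratio difference from -0.615 to 0.249 for Cldn12 to Cldn15 and -0.183 to 0.0767 for Tjp1 to Tjp3. The other 9 shares and 16 ratios kept their sign in every alternative, including sums over all claudin rows and, chosen after seeing the data, all but Cldn25. The cause of these shifts was not tested. Cldn15 and Jam2, near 1 CPM, are limited by depth.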
